A study of Homo sapiens with 2 samples.

Results

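The 10 genes described here, ROR1, ROBO2, COL25A1, HS6ST3, GPC6, KCND2, SAMD12, LDB2, RYR2 and SPIDR, are very long protein-coding genes. They were picked by symbol out of 36601 genes in the tables, from earlier results of these same cells, as genes with more RNA in the control library. Their levels in the libraries therefore chose them, and the ratios given here describe these genes and are not tested. Each spans 397.3 kb or more from first to last exon, in GENCODE 29 on GRCh38, and between 97.48% and 99.94% of coding genes in the tables are shorter. Between 96.45% and 99.45% of each span is intron.

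Transcripts were counted by droplet single-cell RNA sequencing from the 3' end (10x Genomics v3 chemistry) in H9, a long-established line of human embryonic stem cells, kept in the naive state. Cells grew in RSeT, a medium for naive stem cells, and received 25 nM of an oligonucleotide carrying the green dye FAM. In the ASO-L1 library it was antisense to LINE1, a transposon family whose RNA is abundant in early embryos. In the SO-L1 library it was the sense control. Both libraries shared all else: 10 nM DZNep, an inhibitor of methylation reactions known for lowering EZH2, and 5 nM TSA, a histone deacetylase inhibitor, for the 48 hours from transfection to collection. For the first 24 hours both also had the survival-promoting compounds Trans-ISRIB (0.7 µM), emricasan (5 µM) and Y-27632 (10 µM). Sorting for the dye gave 100000 cells for each library. The series title concerns repression of the state of the 8-cell embryo. Each group has 1 library from 1 cell line, so no difference has a replicate check, no p-value is given, and all intervals cover counting error only.

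RNA polymerase needs a long time to cross a gene of this size, and most of what it makes there is intron that is later spliced out. Genes this long are found above all among cell-surface receptors, adhesion molecules, matrix components and ion channels, and many are best known from neurons or heart. The sources used here do not say whether intronic reads were counted, so a UMI of these genes may stand for spliced or unspliced RNA. A UMI is 1 tagged cDNA molecule.

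The promoters of 3 of the genes are shown because these genes stand at the ends of the patterns described below: RYR2 differed most between the libraries, ROR1 most between cell classes, and GPC6 had the most UMIs. RefSeq windows on GRCh38.p14 run from 250 bases before the start site to 50 after. They are described here for 7 of the 10 genes, 8 windows in all. LDB2, SAMD12 and SPIDR are left out, so the motif counts below do not cover them. Sequences run 5′ to 3′ on the gene's strand. Capitals mark any of 4 motifs searched on both strands: GGGCGG, known as the GC box, TATAAA, known as the TATA box, CACGTG, a form of the E-box, and CCAAT, known as the CCAAT box. The windows are chr1:237041934-237042233 (+ strand) for RYR2, chr1:63773767-63774066 (+ strand) for ROR1 and chr13:93226557-93226856 (+ strand) for GPC6.
RYR2: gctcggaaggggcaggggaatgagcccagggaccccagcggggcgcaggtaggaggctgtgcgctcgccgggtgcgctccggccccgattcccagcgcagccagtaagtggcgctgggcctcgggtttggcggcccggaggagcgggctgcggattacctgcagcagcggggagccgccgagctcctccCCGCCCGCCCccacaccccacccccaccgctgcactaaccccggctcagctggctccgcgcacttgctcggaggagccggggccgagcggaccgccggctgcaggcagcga
ROR1: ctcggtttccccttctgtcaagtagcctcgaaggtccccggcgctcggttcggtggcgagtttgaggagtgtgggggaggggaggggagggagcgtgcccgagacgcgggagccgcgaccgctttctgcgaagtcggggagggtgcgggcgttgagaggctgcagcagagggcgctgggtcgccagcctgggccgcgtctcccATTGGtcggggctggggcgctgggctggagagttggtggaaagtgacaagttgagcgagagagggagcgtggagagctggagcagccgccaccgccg
GPC6: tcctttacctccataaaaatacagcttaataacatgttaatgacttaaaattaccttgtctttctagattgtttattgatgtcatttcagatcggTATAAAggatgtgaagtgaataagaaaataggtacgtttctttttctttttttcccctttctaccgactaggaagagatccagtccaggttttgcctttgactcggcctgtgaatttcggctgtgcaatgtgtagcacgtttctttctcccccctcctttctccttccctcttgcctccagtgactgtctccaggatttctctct
The windows do not look alike. That of RYR2 is 75.3% G and C with 32 CpG and carries an overlapping pair of GGGCGG on the opposite strand, while that of GPC6 is 40% G and C with 6 CpG and carries TATAAA. The ROR1 window, at 69% with 29 CpG, carries CCAAT on the opposite strand. GGGCGG stands in 3 of the 8 windows, those of RYR2 and KCND2 and 1 of the ROBO2 windows, against 43.3% of 822 windows of other coding genes as long and 56.9% of 21063 windows of all coding genes. CCAAT stands in the COL25A1 and ROR1 windows (32% and 34.6% of the same sets), TATAAA in GPC6 alone (10.3% and 9.25%) and CACGTG in KCND2 alone (5.47% and 8.37%). These matches describe letters in a window and say nothing about binding.

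The filter asked for 1000 genes or more in a cell and a mitochondrial share of its UMIs below 20%, which left 9084 of 11659 barcodes in ASO-L1 and 6553 of 13070 in SO-L1. They held 499106701 and 273349662 UMIs, with a median per cell of 53959.5 in ASO-L1 and 42314 in SO-L1. In both libraries the mitochondrial share divided the cells into 2 classes. Below 2% stood 2531 ASO-L1 cells (27.9%; median share 0.133%) and 1857 SO-L1 cells (28.3%; 0.148%). The remaining 6553 ASO-L1 and 4696 SO-L1 cells had 2% or more, with median shares of 7.31% and 8.91%. Barcode sequences overlapped between libraries: 6105 were present in both and 274 were kept in both. Of these 274, 264 had more UMIs in ASO-L1, with medians of 126553 UMIs in ASO-L1 and 1792 in SO-L1. Leaving these cells out of both libraries moved no log2 ratio of the 10 genes by more than 0.05.

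The cells expressed pluripotency genes in both libraries, as their label says. All 10 listed pluripotency markers, such as POU5F1 and SOX2, were measured, at 3510 summed CPM (UMIs of a gene per 1000000 UMIs) in ASO-L1 and 4090 in SO-L1. Markers of tissues in which several of the long genes are best known were scarce, or present in both libraries: 7 cardiac markers summed to 9.89 CPM in ASO-L1 and 10 in SO-L1, and 5 endothelial markers to 11.7 and 8.82. Neural markers summed to 559 CPM in ASO-L1 and 647 in SO-L1, most of it TUBB3 (407 and 467), a tubulin that stem cells also express. In mesenchyme the 7 markers summed to 53.3 and 37.5 CPM, with 1 of them at 0 UMIs in SO-L1. Markers of the 8-cell stage were higher in ASO-L1, at 264 CPM against 49.8 in SO-L1, with 9 of 9 measured markers at least 1.5-fold higher, as were naive markers, at 764 and 367 CPM with 8 of 9 higher. Markers of the primed state, as opposed to the naive one, summed to 713 CPM in ASO-L1 and 742 in SO-L1. By the same 1.5-fold limit 3 of these 7 were higher and 0 lower. The part of these marker lists in the results below was not tested.

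Levels below are UMIs summed over the cells of a library, in CPM. All 10 genes were lower in ASO-L1 than in SO-L1. Their median log2 ratio of ASO-L1 over SO-L1 was −0.79, with a range of −1.89 to −0.27, beside a median of −0.02 over 22863 genes with at least 100 UMIs. At least 1.5-fold lower were 8 of the 10, and 2, RYR2 and SPIDR, were at least 2-fold lower. Among all genes tested 17.1% were at least 1.5-fold lower and 5.9% at least 2-fold lower. Since levels chose the genes, nothing is read from the difference between these shares. Of the 478 other coding genes with spans of 397.3 kb or more, 49.8% were at least 1.5-fold lower and 17.6% at least 2-fold lower; their median was −0.58, and 88.5% lay below 0. With 1 library a group, fewer cells with a transcript and less of it per cell are separated only by the single-cell shares given further on.

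ROR1 and ROBO2 are cell-surface receptors. ROR1 (ENSG00000185483, chromosome 1, 63774022 to 64181498), a receptor tyrosine kinase-like protein that responds to WNT5A, stood at 43.4 CPM in ASO-L1 and 72.2 CPM in SO-L1 (21656 and 19749 UMIs). Its ratio was 0.601 (95% interval 0.589 to 0.612). ROBO2 (ENSG00000185008, chromosome 3, 75906695 to 77649964), a receptor for the SLIT guidance proteins and at 1743.3 kb the longest of the 10, had 46.2 CPM in ASO-L1 and 55.8 CPM in SO-L1, a ratio of 0.827 (0.81 to 0.844). ROBO2 therefore differed least of the 10. Among the 478 other long genes 73.2% had a lower ratio than ROBO2, and 36.2% a lower ratio than ROR1.

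GPC6, HS6ST3 and COL25A1 belong to the cell surface and its matrix. GPC6 (ENSG00000183098, chromosome 13, 93226842 to 94407401) encodes a glypican, a core protein that carries heparan sulfate chains on the membrane. It had the most UMIs of the 10, with 223 CPM in ASO-L1 and 372 CPM in SO-L1, a ratio of 0.601 (0.596 to 0.606). HS6ST3 (ENSG00000185352, chromosome 13, 96090839 to 96839562), which adds sulfate to heparan sulfate chains, had 26.8 CPM in ASO-L1 and 39.9 CPM in SO-L1, a ratio of 0.671 (0.655 to 0.689). COL25A1 (ENSG00000188517, chromosome 4, 108808725 to 109302752), a membrane-spanning collagen known from amyloid plaques and from muscle innervation, had 22.5 CPM in ASO-L1 and 41 CPM in SO-L1. Its ratio of 0.549 (0.535 to 0.564) was the lowest of these 3 genes.

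KCND2 and RYR2 encode ion channels. KCND2 (ENSG00000184408, chromosome 7, 120273668 to 120750331), the pore of the Kv4.2 potassium channel of neurons and heart, had 54.1 CPM in ASO-L1 and 90.8 CPM in SO-L1, a ratio of 0.596 (0.586 to 0.606). RYR2 (ENSG00000198626, chromosome 1, 237042205 to 237833988), the calcium release channel of heart muscle, had 13.8 CPM in ASO-L1 and 51 CPM in SO-L1 (6874 and 13941 UMIs). Its ratio of 0.27 (0.262 to 0.278) was the lowest of the 10, and 0 of the 478 other long genes had a lower one. The 1% of cells with most RYR2 UMIs held 22.9% of them in ASO-L1 and 10.6% in SO-L1. For the other 9 genes that share ran from 6.25% (LDB2) to 16.4% (ROBO2) in ASO-L1, and from 4.52% (SPIDR) to 11% (ROBO2) in SO-L1, so RYR2 stood above the others in ASO-L1 but not in SO-L1.

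LDB2 and SPIDR act in the nucleus, and the role of SAMD12 is less well known. LDB2 (ENSG00000169744, chromosome 4, 16501541 to 16898809), a cofactor that binds LIM-domain transcription factors, is at 397.3 kb the shortest of the 10 and had 184 CPM in ASO-L1 and 353 CPM in SO-L1, a ratio of 0.521 (0.516 to 0.526). SPIDR (ENSG00000164808, chromosome 8, 47260575 to 47736306), a scaffold for DNA repair by homologous recombination, had 68.1 CPM in ASO-L1 and 169 CPM in SO-L1, a ratio of 0.403 (0.397 to 0.408). Of the other long genes, 4.81% had a lower ratio than SPIDR and 20.3% a lower one than LDB2. SAMD12 (ENSG00000177570, chromosome 8, 118189455 to 118622112), a sterile alpha motif protein whose intronic repeat expansion causes a familial myoclonic epilepsy, had 18.9 CPM in ASO-L1 and 33.6 CPM in SO-L1, a ratio of 0.564 (0.548 to 0.58).

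Per 100 kb of span, the scale on which levels of different genes are compared here, LDB2 stood highest in both libraries, at 46.2 CPM per 100 kb in ASO-L1 and 88.8 in SO-L1. In ASO-L1 it was followed by GPC6 (18.9), SPIDR (14.3), KCND2 (11.4) and ROR1 (10.6). In SO-L1 the order of the next genes differed, with SPIDR (35.6) before GPC6 (31.5), KCND2 (19.1) and ROR1 (17.7). COL25A1 (4.56 in ASO-L1 and 8.3 in SO-L1), SAMD12 (4.38 and 7.76), HS6ST3 (3.58 and 5.34) and ROBO2 (2.65 and 3.2) stood lower. RYR2 was last in ASO-L1 at 1.74, but above HS6ST3 and ROBO2 in SO-L1 at 6.44. Without replicate libraries the spread around these positions is not known.

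**Figure D1:**
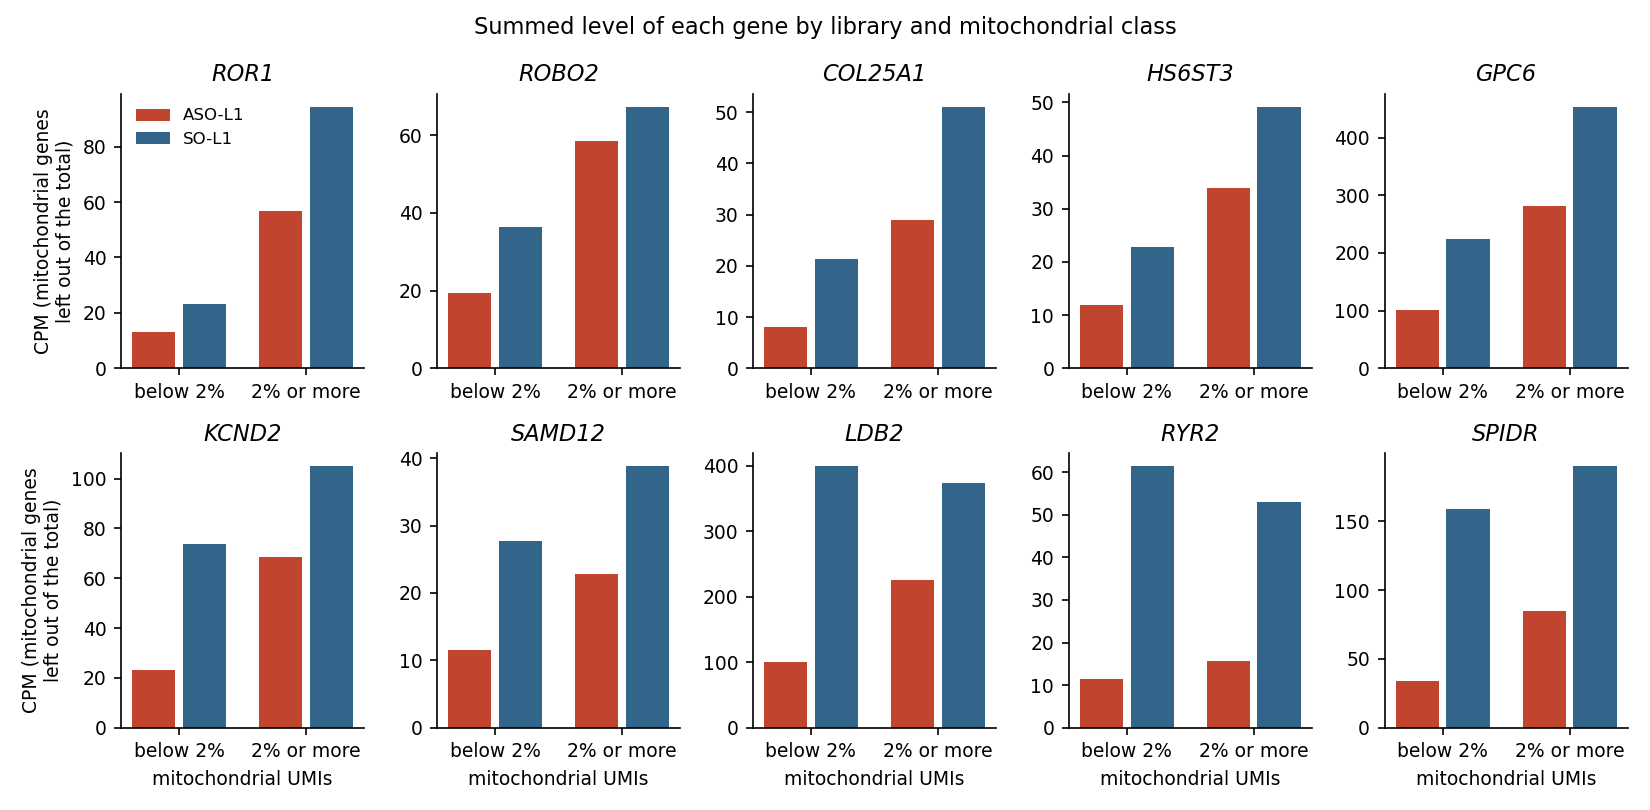
Summed level of each of the 10 genes in CPM over non-mitochondrial UMIs, in cells below 2% mitochondrial UMIs (left pair of bars) and at 2% or more (right pair), ASO-L1 beside SO-L1; each panel has its own axis and each bar is 1 library. ASO-L1 bars are the lower ones in every pair, and LDB2 and RYR2 are the genes whose SO-L1 bar is higher in the class below 2% (399 and 61.4 CPM) than in the other (374 and 53 CPM).

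The difference between libraries was present in both mitochondrial classes and larger below 2%. The CPM of these comparisons exclude mitochondrial genes from the total. Below 2%, the 10 genes had a median log2 ratio of ASO-L1 over SO-L1 of −1.33 (−2.42 to −0.82), and all 10 were at least 1.5-fold and 7 at least 2-fold lower. There 24.9% of all genes tested and 69% of the other long genes were at least 1.5-fold lower, and 13.4% and 48.1% at least 2-fold lower; the median of the other long genes was −0.98. At 2% or more, the median of the 10 was −0.74 (−1.76 to −0.20), with 8 at least 1.5-fold and 2 at least 2-fold lower. In that class 15.7% of all genes and 42.1% of the other long genes were at least 1.5-fold lower, and 4.58% and 9.83% at least 2-fold lower, with a median of −0.50 for the other long genes. Stage markers also differed between the classes: below 2%, pluripotency markers summed to 2110 CPM in ASO-L1 and 3600 CPM in SO-L1, with 6 of 10 at least 1.5-fold lower, against 4240 and 4660 CPM with 0 of 10 at 2% or more. Markers of the 8-cell stage summed to 822 CPM in ASO-L1 and 191 CPM in SO-L1 below 2%, and to 107 and 12 CPM at 2% or more. Naive markers summed to 1580 and 655 CPM below 2%, and to 564 and 317 CPM at 2% or more. Most of the sums below 2% was ALPG, with 1210 CPM in ASO-L1 and 392 CPM in SO-L1. DPPA5 went the other way in that class, with 134 CPM in ASO-L1 and 195 CPM in SO-L1. Of the 9 naive markers there, 6 passed the 1.5-fold limit upward and 0 downward, beside 4393 of 19176 genes tested upward and 24.9% downward.

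LDB2 showed the widest gap between the classes. It had 101 CPM in ASO-L1 and 399 CPM in SO-L1 below 2%, a ratio of 0.253 (0.248 to 0.259), but 225 CPM in ASO-L1 and 374 CPM in SO-L1 at 2% or more, a ratio of 0.601 (0.595 to 0.608). The log2 ratio was thus lower below 2% by 1.25 (interval of the difference −1.28 to −1.21). SPIDR had 34.2 CPM in ASO-L1 and 159 CPM in SO-L1 below 2%, and 84.6 and 190 CPM at 2% or more; the difference of its log2 ratios was −1.05 (−1.11 to −0.99). KCND2 had 23.3 CPM in ASO-L1 and 73.6 CPM in SO-L1 below 2%, and 68.4 and 105 CPM at 2% or more, a difference of −1.04 (−1.11 to −0.96). ROR1 was the exception: 13.1 CPM in ASO-L1 and 23.1 CPM in SO-L1 below 2%, and 56.7 and 94.5 CPM at 2% or more, gave log2 ratios of −0.82 and −0.74, whose difference of −0.08 (−0.19 to 0.03) is within counting error. For the other 6 genes the difference ran from −0.70 (ROBO2) to −0.40 (HS6ST3). RYR2 had the lowest ratio of the 10 in either class, 0.187 (0.175 to 0.199) below 2% and 0.295 (0.285 to 0.305) at 2% or more.

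**Figure D2:**
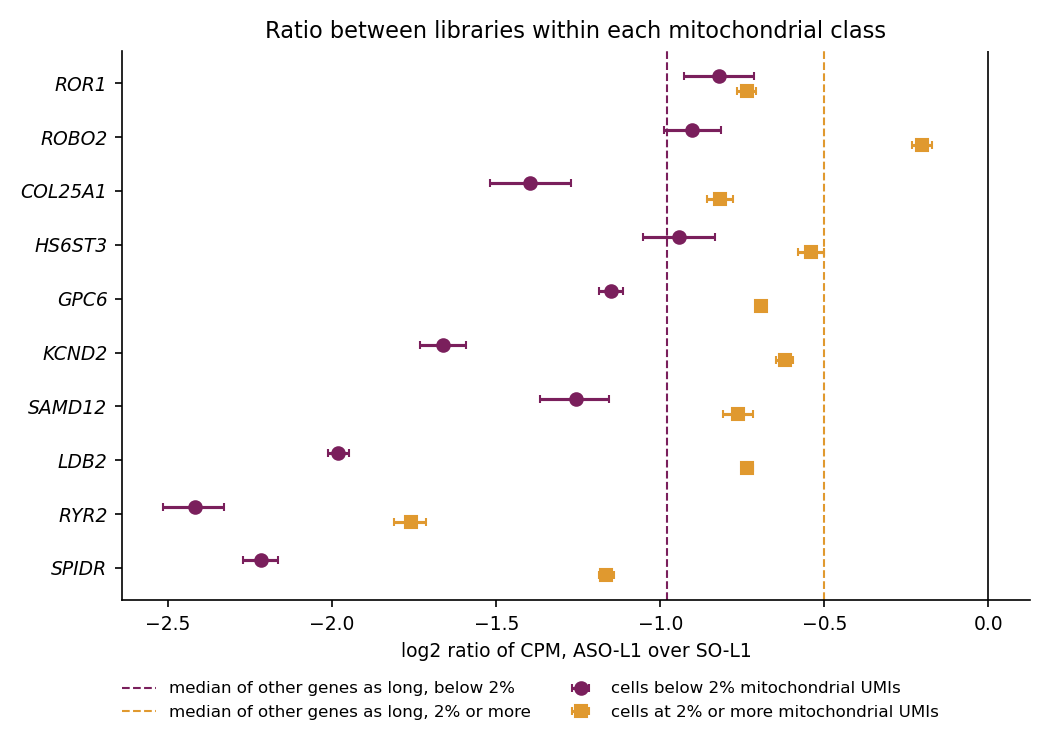
log2 ratio of CPM, ASO-L1 over SO-L1, for each of the 10 genes in cells below 2% mitochondrial UMIs (circles) and at 2% or more (squares), with 95% counting intervals; dashed lines are the medians of the other coding genes as long (−0.98 and −0.50). All points lie left of 0, the circles lie left of the squares, and the pair of ROR1 overlaps in its intervals.

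Within a library, cells below 2% were set against cells with 2% or more. Nuclear RNAs differed between these classes. MALAT1 had 6060 CPM below 2% and 3278 at 2% or more in ASO-L1, and 4846 and 2142 CPM in SO-L1. NEAT1 had 1283 and 372.1 CPM in ASO-L1, and 2246 and 303.3 CPM in SO-L1. The part of this difference in the ratios of the 10 genes was not tested. In ASO-L1 all 10 genes were lower below 2%, with a median log2 ratio of −1.50 (−2.12 to −0.45), and 9 were at least 1.5-fold lower, beside 13% of all genes tested and 39.3% of the other long genes. In SO-L1 the median was −0.70 (−2.03 to 0.21), and 5 were at least 1.5-fold lower, beside 6.52% of all genes tested and 10.5% of the other long genes. The other long genes had medians of −0.40 in ASO-L1 and 0.09 in SO-L1, and all genes tested 0.14 and 0.09. ROR1 had almost the same ratio of classes in both libraries, 0.231 (0.219 to 0.243) in ASO-L1 and 0.244 (0.231 to 0.258) in SO-L1. Of 478 other long genes 1 had a lower ratio than ROR1 in ASO-L1, and of 474 in SO-L1 none did, a statement on these libraries at 100 UMIs or more and without a test. LDB2 and RYR2 differed in sign between the libraries: LDB2 stood at 0.449 (0.44 to 0.458) in ASO-L1 and 1.07 (1.05 to 1.08) in SO-L1, and RYR2 at 0.732 (0.689 to 0.777) in ASO-L1 and 1.16 (1.11 to 1.2) in SO-L1. On the log2 scale the SO-L1 value of LDB2, 0.09, equalled the median of all genes tested, and it was 0.00 when values were scaled to that median. When each cell was weighted equally the ASO-L1 value of RYR2 was 0.00 on the log2 scale, against −0.45. SPIDR, SAMD12 and KCND2 were between these patterns, at 0.404, 0.506 and 0.34 in ASO-L1 and 0.839, 0.713 and 0.699 in SO-L1.

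Finer steps of the mitochondrial share gave the same picture in SO-L1 and a graded one in ASO-L1. The summed level of the 10 genes in ASO-L1 was 336.2 CPM under 0.5%, 328.4 from 0.5% to 1%, 316.4 from 1% to 2%, 475.1 from 2% to 5%, 873.9 from 5% to 10% and 1281 from 10% to 20%. In SO-L1 the same steps gave 1045, 1040, 1166, 1383, 1502 and 1430 CPM. The level of SO-L1 was higher in every step. Depth differed between these steps: at 2% to 5% the median was 58908 UMIs in ASO-L1 and 7089 in SO-L1, and its part in the result was not tested. By quartile of UMIs per cell, the summed level at 2% or more was 619.8, 819, 986.6 and 918.5 CPM from the shallowest to the deepest ASO-L1 cells, and 1169, 1309, 1539 and 1627 CPM in SO-L1. Below 2% the shallowest quartile was highest in both libraries, with 565.4 CPM in ASO-L1 and 1607 CPM in SO-L1, and the second shallowest was lowest, with 269 and 853.6 CPM.

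Across coding genes the ratio of the libraries followed span. In all kept cells the median log2 ratio of ASO-L1 over SO-L1 was 0.07 for 3164 genes under 10 kb, 0.09 for 6837 of 10 to 50 kb, −0.01 for 2776 of 50 to 100 kb, −0.12 for 1970 of 100 to 200 kb, −0.40 for 1120 of 200 to 500 kb and −0.62 for 312 of 500 kb or more. Below 2% mitochondrial UMIs the gradient was steeper, with 0.15 under 10 kb and −1.0 at 500 kb or more, than at 2% or more, with −0.01 and −0.54. Between the classes, ASO-L1 had medians of 0.15 under 10 kb and −0.40 at 500 kb or more, while SO-L1 had −0.02 and 0.11. The 10 genes thus lay on the side of other long genes, and span alone did not order them: ROBO2, the longest, differed least, and LDB2, the shortest, differed more than 7 of the others. Among the other genes of 500 kb or more with most UMIs were DIAPH2, a formin (0.75), ANK2, an ankyrin (0.689), PTPRG, a receptor phosphatase (0.623), and SYT1, a synaptotagmin (0.791), each as a ratio of ASO-L1 over SO-L1.

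**Figure D3:**
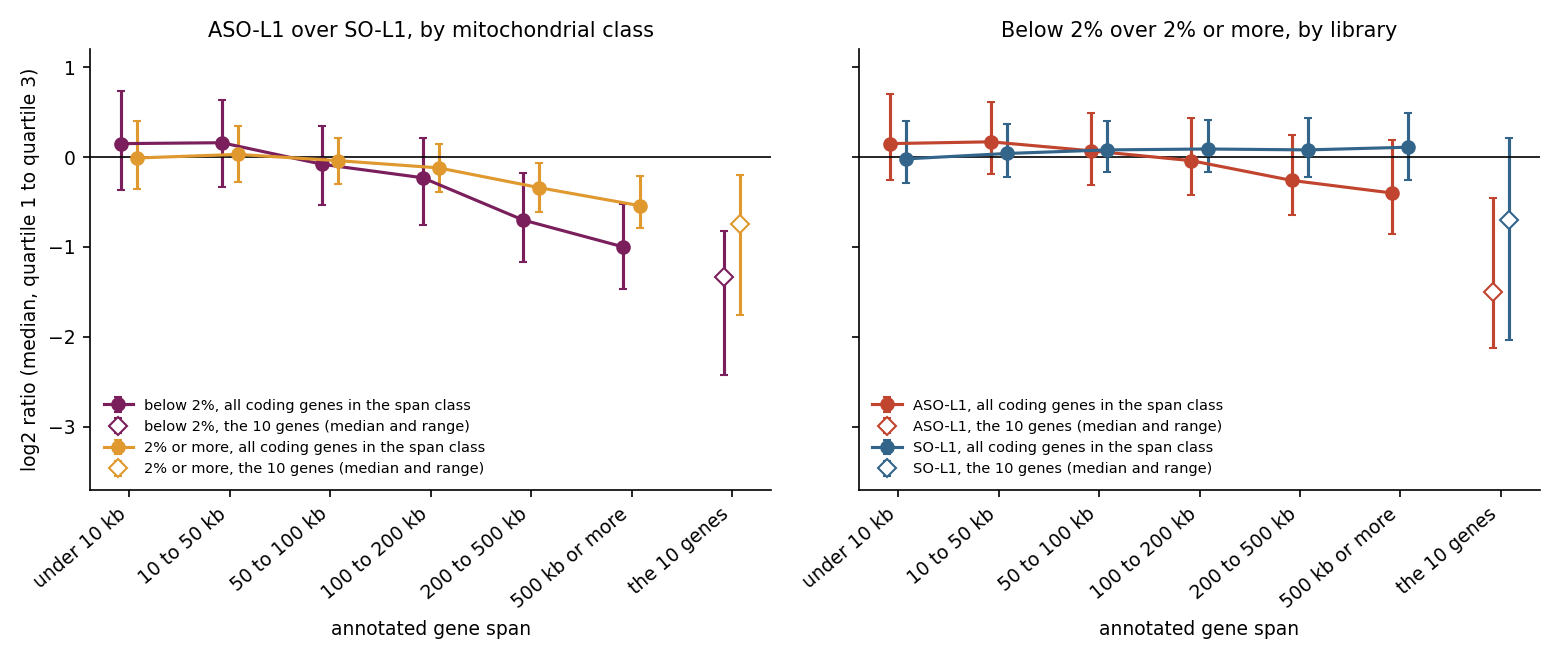
Median log2 ratio of coding genes by annotated span, with bars from the first to the last quartile, and of the 10 genes, with bars over their range; left, ASO-L1 over SO-L1 in each mitochondrial class, and right, cells below 2% over cells at 2% or more in each library. The left lines descend with span, to −1.0 below 2% and −0.54 at 2% or more, while on the right only the ASO-L1 line descends, to −0.40, and the SO-L1 line ends at 0.11.

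Shares of cells with a transcript depend on depth, so each cell was thinned to 8000 UMIs, which left out 520 ASO-L1 and 649 SO-L1 cells that were shallower. Thinned ASO-L1 cells held a median of 2 of the 10 genes, against 4 in SO-L1. No gene of the list had a UMI in 23.4% (22.5 to 24.3) of thinned ASO-L1 cells, against 1.61% in SO-L1. Below 2% these shares were 44.8% (42.8 to 46.9) in ASO-L1 and 4.5% (3.53 to 5.66) in SO-L1, and at 2% or more 15.8% (14.9 to 16.8) and 0.575% (0.372 to 0.847). At least 3 of the 10 were present in 18.3% (16.7 to 19.9) of ASO-L1 and 64.5% (62.1 to 66.9) of SO-L1 cells below 2%, and in 49.5% (48.2 to 50.7) and 87.3% (86.2 to 88.2) at 2% or more. Unthinned, they were present in 44.7% and 86.4% below 2%, and in 80.9% and 94.1% at 2% or more.

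Gene by gene, every thinned share was lower in ASO-L1, in both classes. LDB2 was the most widely present gene, in 31.1% of ASO-L1 and 74.9% of SO-L1 cells below 2%, and in 65.4% and 86.4% at 2% or more. RYR2 was present in 7.16% of ASO-L1 and 26.4% of SO-L1 cells below 2%, and in 8.28% and 25.1% at 2% or more, so its share was nearly the same in the classes of each library. SPIDR was present in 15.4% of ASO-L1 and 60.7% of SO-L1 cells below 2%, and in 33.9% and 66.7% at 2% or more. ROR1 was present in 7.07% of ASO-L1 and 14.3% of SO-L1 cells below 2%, and in 27.5% and 41.3% at 2% or more. Over all unthinned cells the mean number of UMIs in a cell with at least 1 was lower in ASO-L1 for LDB2 (12.6 in ASO-L1 and 16 in SO-L1), SPIDR (6.8 and 8.06) and RYR2 (3.07 and 3.8), although ASO-L1 cells were deeper. It was close between libraries for ROR1 (4.84 and 4.82) and GPC6 (16.8 and 17.2), and higher in ASO-L1 for ROBO2 (5.85 and 4.28), HS6ST3 (4.15 and 3.37), KCND2 (6.32 and 5.72), SAMD12 (2.99 and 2.63) and COL25A1 (3.26 and 3.04). None of these means was scaled for depth, and the median cell held 53959.5 UMIs in ASO-L1 and 42314 in SO-L1. Close or higher means in ASO-L1 are therefore not read as equal or greater levels per positive cell. Free RNA can place single UMIs in cells that do not express a gene; no cell type known to lack these genes was at hand, so its part in the shares was not tested.

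**Figure D4:**
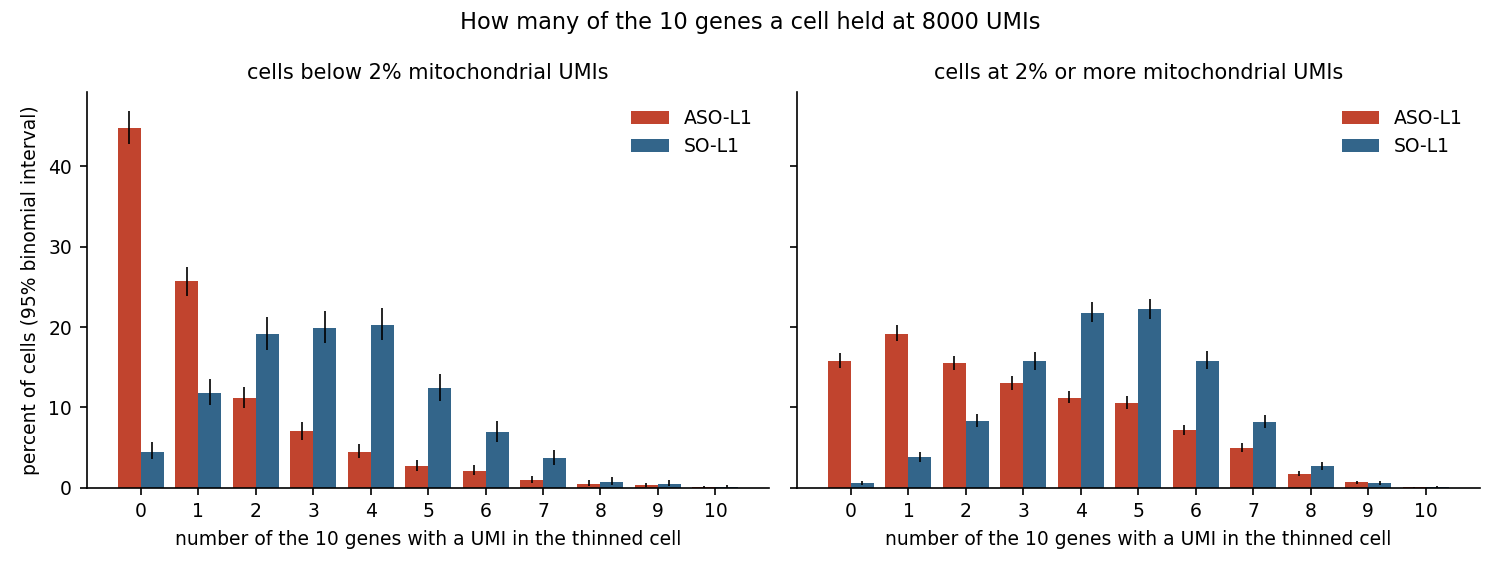
Percent of thinned cells (8000 UMIs each) with 0 to 10 of the genes detected, ASO-L1 beside SO-L1, in cells below 2% mitochondrial UMIs (left) and at 2% or more (right), with 95% binomial intervals. ASO-L1 cells below 2% gather at 0 genes (44.8%), while SO-L1 cells have a median of 3 genes below 2% and of 4 at 2% or more.

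The 10 genes were found together more often than their single shares give, most of all in ASO-L1 and only slightly in SO-L1 at 2% or more. Pairs of other genes were not compared, so the excess is not shown to be particular to the 10. For each of the 45 pairs the cells holding both genes were set over the number expected from the single shares within 10 strata of depth. The median of this ratio was 1.59 (1.17 to 2.62 over pairs) in ASO-L1 and 1.07 (1.03 to 1.34) in SO-L1 below 2%, and 1.24 (1.05 to 1.59) in ASO-L1 and 1.02 (1.01 to 1.07) in SO-L1 at 2% or more. In thinned cells the medians were 2.66 in ASO-L1 and 1.19 in SO-L1 below 2%, and 1.64 and 1.07 at 2% or more. The highest was that of HS6ST3 and KCND2 in ASO-L1 below 2%, where 245 cells held both and 93.55 were expected; in SO-L1 the same pair had 385 cells against 311.2 expected. In ASO-L1 at 2% or more the highest pairs joined RYR2 to SAMD12 (1232 cells, 773.2 expected), HS6ST3 (1225 and 818.2) and COL25A1 (1262 and 870.5). In ASO-L1 all 9 pairs with LDB2 lay under the median of their class, at 1.17 to 1.48 below 2% and 1.05 to 1.08 at 2% or more. So did all 9 pairs with GPC6, at 1.23 to 1.54 below 2% and 1.05 to 1.14 at 2% or more. A gene present in nearly all cells leaves little room for a ratio above 1, and the shares in SO-L1 were higher, so the ratios of the libraries are given side by side and are not a test.

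Cells of ASO-L1 also differed in how much RNA they held from other genes of this length. The 478 other long genes took a median of 1.8% of a cell's non-mitochondrial UMIs in ASO-L1 and 3.13% in SO-L1. Below 2% mitochondrial UMIs the medians were 1.24% and 3.33%, and at 2% or more 2.03% and 3.09%. Cells with less than 1% made up 23.2% (22.4 to 24.1) of ASO-L1 and 1.98% (1.66 to 2.35) of SO-L1. Cells with a like share were also compared, in steps chosen after the values were seen. Over all kept cells the summed level of the 10 genes, without mitochondrial UMIs in the total, was 744.1 CPM in ASO-L1 and 1378 CPM in SO-L1. Under 0.5% it was 29.99 CPM in 460 ASO-L1 cells and 117.9 CPM in 36 SO-L1 cells, and at 0.5% to 1% it was 65.83 CPM in 1649 and 202.4 CPM in 94 cells, wider differences than over all cells. The SO-L1 cells of these steps were few and shallow, with medians of 9703.5 and 9927.5 UMIs against 56640 and 53542 in ASO-L1. From 1% on the differences in the sum were narrower, with 313 CPM in ASO-L1 and 501 CPM in SO-L1 at 1% to 2%, 920.1 and 1060 at 2% to 3%, 1660 and 1527 at 3% to 4%, and 2254 and 1943 at 4% to 5%. The order of the libraries thus turned round above 3%. RYR2 was lower in ASO-L1 in each step from 1% to 5%, at 4.07 and 19.9, 12.3 and 41.6, 32.6 and 59.2, and 58 and 76.1 CPM, as was LDB2, at 141 and 173, 270 and 316, 346 and 408, and 402 and 493 CPM. SPIDR had 18 CPM in ASO-L1 and 62.8 in SO-L1 at 1% to 2%, but 250 and 242 at 4% to 5%. For both RYR2 and SPIDR the difference at 1% to 2% was wider than over all kept cells. ROBO2 and GPC6 were higher in ASO-L1 at 3% to 4%, with 123 and 66.9 CPM for ROBO2 and 567 and 453 for GPC6. In that step ROR1, COL25A1, HS6ST3, KCND2 and SAMD12 were higher in ASO-L1 as well, while RYR2, LDB2 and SPIDR were lower.

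**Figure D5:**
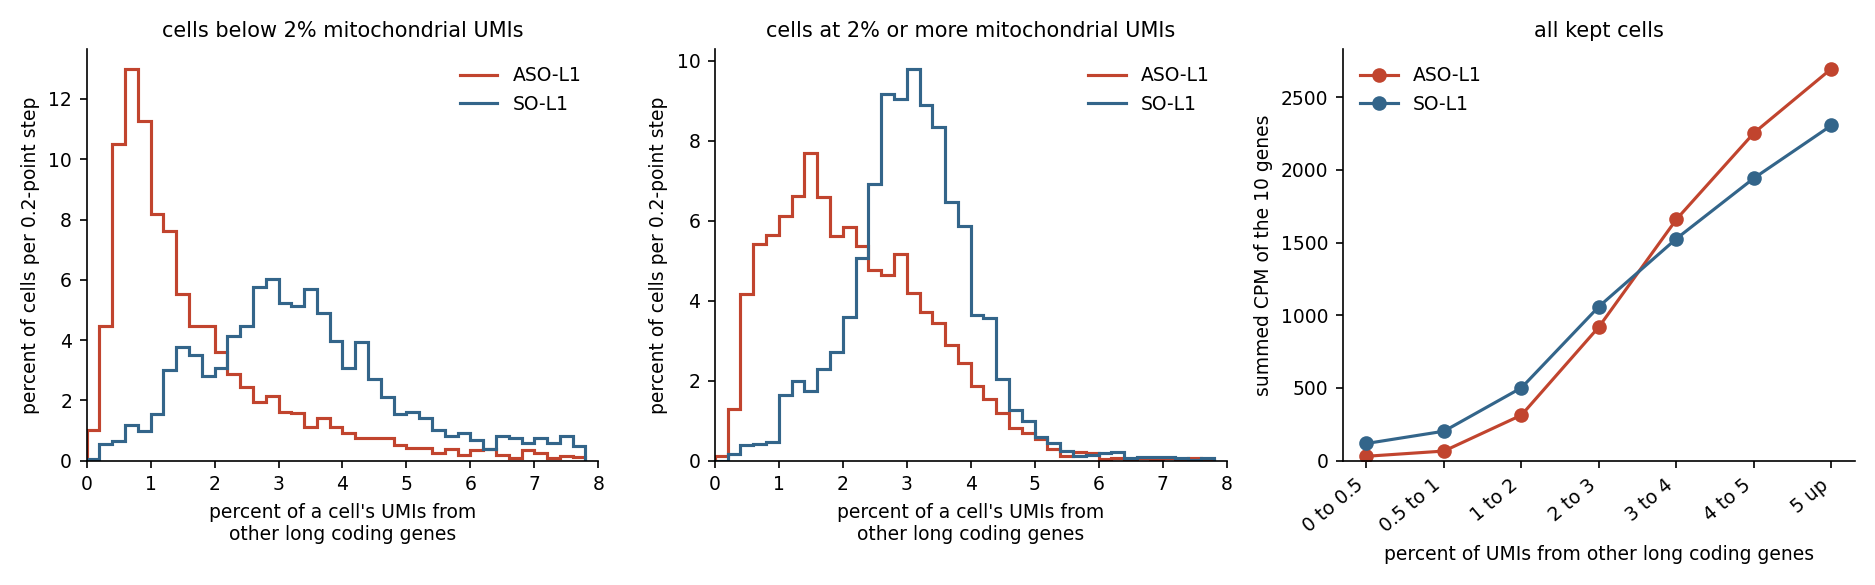
Left and middle, percent of cells by the share of their non-mitochondrial UMIs from the 478 other long coding genes, in steps of 0.2 points up to 7.8%; cells above that, not drawn, were 2.29% of ASO-L1 and 8.56% of SO-L1 below 2% mitochondrial UMIs, and 0.366% and 1.11% at 2% or more. Right, summed CPM of the 10 genes in all kept cells by that share, where ASO-L1 lies under SO-L1 up to 3% and above it beyond.

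Cells rich in the 10 genes were compared with cells that had none, both thinned; the groups were set by the genes' own counts, so only other genes are given. In ASO-L1 below 2%, 251 cells with 4 or more of the genes had 4.91 times (4.86 to 4.96) as much RNA from the 478 other long genes as the 1002 cells with none, and in SO-L1 below 2% it was 2.17 times (2.13 to 2.22; 693 and 70 cells). At 2% or more it was 3.62 times in ASO-L1 (2304 and 1002 cells) and 2.39 times in SO-L1 (3109 and 25 cells). Summed pluripotency markers were higher in the rich cells, 3.19 times in ASO-L1 and 1.65 times in SO-L1 below 2%, and 1.56 and 1.06 times at 2% or more, where the interval of SO-L1, 0.993 to 1.14, includes no difference and POU5F1 stood at 0.649 (0.578 to 0.73). The 10 markers of the 8-cell stage, among them CCNA1 and KHDC1L, were lower in the rich cells, at 0.0961 times in ASO-L1 and 0.0853 times in SO-L1 below 2%, and 0.267 times in ASO-L1 at 2% or more. In SO-L1 at 2% or more the cells with none held 4 UMIs of these markers, too few for a direction. Summed naive markers were lower as well, at 0.239 times in ASO-L1 and 0.204 times in SO-L1 below 2%, and 0.709 and 0.686 times at 2% or more. ALPG made up most of that sum in ASO-L1 cells below 2% with none of the genes (13324 of 16258 UMIs), and members of the list differed in direction. DPPA5 was higher in the rich cells, at 5.05 times (4.5 to 5.68) in ASO-L1 and 1.39 times (1.11 to 1.78) in SO-L1 below 2% and 2.05 times (1.94 to 2.18) in ASO-L1 at 2% or more, against 0.777 times (0.6 to 1.02) in SO-L1 at 2% or more. SUSD2 stood at 1.35 times (0.793 to 2.22) in ASO-L1 below 2%.

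Genes known to work with the 10 were mixed in direction. Their spans differed widely, from 6.963 kb (FZD1) to 910.4 kb (RAD51B) among those named, and the part of span in these values was not tested. Counts of partners that follow are at least 1.5-fold higher or lower in ASO-L1 over all kept cells, where the share of all genes tested was 16.6% higher and 17.1% lower. Of 11 ROBO and SLIT guidance genes 4 were lower and 1 higher (median −0.41). The abundant ENAH and ABL1, which act on the cytoskeleton, stood at 1.03 and 0.904, and the widest differences were in SRGAP1, a GTPase-activating partner of ROBO receptors (0.307; 8.04 CPM in ASO-L1 and 26.2 in SO-L1), and the ligand SLIT3 (0.456). Of 19 Wnt receptor genes listed with ROR1, 5 were higher and 2 lower (median 0.32), with FZD5 at 1.61, the paralog ROR2 at 0.909, the polarity gene VANGL2 at 2.16 and FZD1 at 3.19 on 198 UMIs in ASO-L1 and 34 in SO-L1. Of 28 genes of glypicans and heparan sulfate synthesis 3 were higher and 4 lower (median −0.06). Among them the chain polymerase EXT1 had a ratio of 0.585 (195 CPM in ASO-L1 and 333 in SO-L1), HS2ST1, a sulfotransferase, 0.633, SULF1, which removes sulfate, 2.07, and NDST3 2.01.

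For the channels, 5 of 25 partners were higher and 5 lower (median −0.20), with the calmodulin gene CALM2 at 1.75, the junctophilin JPH2 at 3.18 and the calcium store protein CASQ1 at 2.57. The LIM-domain-binding list had 7 of 20 measured genes higher and 1 lower (median 0.25). LDB1, the paralog of LDB2, was 2.81-fold higher (10.6 CPM in ASO-L1 and 3.77 in SO-L1) where LDB2 was lower, LHX1 stood at 5.87 on 450 and 42 UMIs, and SSBP1 and LMO4 at 1.18 and 1.2. SSBP1 is a mitochondrial DNA-binding protein and not a known LIM-domain partner. Of 18 recombination repair genes 0 were higher and 1 lower (median −0.12): RAD51B stood at 0.463 (120 CPM in ASO-L1 and 258 in SO-L1), BRCA1 at 0.764 and RMI1 at 1.35. The 3 other transmembrane collagens stood at 0.863 (COL23A1), 0.747 (COL13A1) and 2.12 (COL17A1). Of 4 nuclear-retained RNAs 0 were higher and 1 lower by the 1.5-fold limit (median −0.43). MALAT1 stood at 1.45, with 3730 CPM in ASO-L1 and 2570 in SO-L1, while SNHG14 and KCNQ1OT1, both made from long transcripts, stood at 0.688 and 0.663. The nuclear RNA NEAT1 was also lower in ASO-L1, with 593.6 CPM against 755.5 in SO-L1 over non-mitochondrial UMIs.

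Among the 10 other genes whose profile over the 4 sums, 2 libraries by 2 classes, lay nearest to the mean profile of the 10 long genes described here were MYRIP, SERBP1, NEB, GRIA1, THADA, BID, CENPE, EIF4G3 and LIN7A. Likeness was the distance between log2 profiles centred on their means, and ran from 0.105 for MYRIP to 0.16 for LIN7A, against 0.186 for KCND2 and 1.34 for RYR2 among the described genes themselves. Of the nearest genes named, MYRIP, NEB, GRIA1, THADA and EIF4G3 span 249.2 kb or more and LIN7A 145.4 kb, but SERBP1 spans 22.61 kb, BID 40.63 kb and CENPE 92.6 kb. SERBP1, an mRNA-binding protein, had 270 CPM in ASO-L1 and 826 CPM in SO-L1 below 2%, and 780 and 1290 CPM at 2% or more, a profile like that of the 10 in a gene of ordinary length. The profile rests on 4 sums that share their libraries and is a description.

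Overlapping genes could have lent or taken reads, since the sources used here do not say whether counting used strand. The antisense genes with most UMIs were SAMD12-AS1, with 1739 UMIs in ASO-L1 and 1376 in SO-L1, beside 9451 and 9183 for SAMD12, and AL354811.1 within GPC6, with 1087 and 446, beside 111497 and 101667 for GPC6. ROR1-AS1 had 325 UMIs in ASO-L1 and 323 in SO-L1. On the same strand, AC024451.4 overlapped SPIDR, with 55 UMIs in ASO-L1 and 48 in SO-L1, beside 34013 and 46280 for SPIDR. For SAMD12 the value is the least certain in this respect.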

How the data were processed

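Deposited UMI counts, whole numbers per gene and barcode in 1 table per library, came from Cell Ranger 7.1.0, run by the authors (file headers) against hg38 (per the submitters' processing notes). The sources used here do not say whether intronic or antisense reads were counted. Cells with at least 1000 genes and under 20% mitochondrial UMIs were kept; no doublet caller was run. Counts were summed over cells and scaled to CPM, over non-mitochondrial UMIs in class comparisons. Ratios have exact conditional binomial 95% intervals and shares exact Clopper-Pearson 95% intervals; both cover counting error only. UMIs per cell are given with the libraries. Genes counted as tested had at least 100 UMIs over both libraries, and listed partners and markers at least 50. Spans came from GENCODE 29 by gene identifier, found for 34616 of 36601 genes. Promoters came from RefSeq on GRCh38.p14. The 10 genes and all lists were chosen with earlier results of these data known. Named genes were the 10, the 2 with most UMIs and the 2 with the largest log2 ratio of each list, the 10 nearest profiles (500 UMIs or more) and the 5 other genes of 500 kb or more with most UMIs; some genes under this rule are not reported here, and further names were chosen after their values were seen. Ratios and co-detection were tested on simulated data. Alternatives covered the cell filter, total, scaling, cell weighting, thinning, shared barcodes, mitochondrial limit and length measure. Python 3.11.15, numpy 2.4.6, scipy 1.17.1, pandas 2.3.3 and matplotlib 3.10.9 were used.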

Additional observations from a re-analysis of the deposited data

Results flagged for a closer look

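LDB2 differed in sign between the libraries in the comparison of mitochondrial classes. Its log2 ratio of cells below 2% over cells at 2% or more was −1.15 in ASO-L1 and 0.09 in SO-L1, where 0.09 was also the median of all genes tested and scaling to that median gave 0.00. RYR2 did likewise, at −0.45 in ASO-L1 and 0.21 in SO-L1, but stood at 0.00 in ASO-L1 when each cell was weighted equally. With 1 library in each group, the difference between the libraries was not tested.

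Barcodes left out by the cell filter also held RNA of the 10 genes, at 2313 summed CPM in 2575 barcodes of ASO-L1 (12449 UMIs) and 2019 summed CPM in 6517 barcodes of SO-L1 (16863 UMIs). Over non-mitochondrial UMIs of kept cells the summed level was 744.1 CPM in ASO-L1 and 1378 CPM in SO-L1, so the order of the libraries was the other way round in the left-out barcodes. Many left-out barcodes had the sequence of a kept cell of the other library. Of the sequences present in both libraries, 5034 were kept in ASO-L1 only and 788 in SO-L1 only. The part of this overlap in the order was not tested.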

How the results depend on the processing

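No replicate check exists, and single-cell shares move with depth and with the number of genes asked for. No paired analysis was possible because each group has 1 library. Of 129 settings tried for the main results 26 moved a value and 0 were counted as reversed. For single genes 181 of 430 moved a value and 0 were counted as reversed. That count took in only main values of at least 1.5-fold, and shares and co-detection ratios have no sign to reverse. For smaller values, such as those of LDB2 in SO-L1 and RYR2 between classes, it is no check of sign. All 280 single-gene values of ASO-L1 over SO-L1 lay below 0. Weighting each cell equally gave the largest shift of a single gene, 0.63 on the log2 scale. It took RYR2 to 0.00 in ASO-L1 for cells below 2% over 2% or more, and scaling to the median of all genes took LDB2 to 0.00 in SO-L1.

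For cells below 2% over 2% or more in ASO-L1, equal weighting gave the 10 genes a median of −0.97 (main −1.50). For coding genes of 500 kb or more, ASO-L1 over SO-L1, the stricter filter gave −0.70 in all cells (main −0.62) and −0.61 at 2% or more (−0.54), and equal weighting −0.85 below 2% (−1.0). Between classes these genes gave −0.29 with mitochondrial genes in the total, −0.12 with equal weighting and −0.54 scaled in ASO-L1 (−0.40), and 0.24, 0.30 and 0.02 in SO-L1 (0.11). The share of cells with at least 3 of the 10 genes below 2% was 44.7% unthinned and 29.5% for at least 2 genes in ASO-L1 (18.3%), and 86.4% and 83.7% in SO-L1 (64.5%). At 2% or more it was 80.9%, 64.9% and, with the stricter filter, 46.8% in ASO-L1 (49.5%), and 94.1% and 95.6% in SO-L1 (87.3%). Median co-detection below 2% was 2.66 thinned in ASO-L1 (1.59), and 1.14 without depth strata and 1.19 thinned in SO-L1 (1.07). At 2% or more it was 1.31 without strata and 1.64 thinned in ASO-L1 (1.24), and 1.07 under both in SO-L1 (1.02). The cause of these shifts was not tested. Without shared barcodes, a setting chosen after seeing the data, the share in ASO-L1 at 2% or more was 49% and its co-detection 1.25.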
